A study of Mus musculus with 8 samples.

Results

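Most Slc25a genes encode carriers of the mitochondrial inner membrane. The family was chosen with earlier results of these data known. Its rows were picked by name, as every row of the deposited gene count table whose symbol is Slc25a followed only by digits. The rule found 47 rows among 53921 that name a gene. The measurements come from mouse induced cardiomyocytes, fibroblasts driven towards a heart muscle identity by forced expression of transcription factors and collected on day 5. All cells received the mix labelled MGT (by common usage Mef2c, Gata4 and Tbx5), and the source name carries the word Neo, which the labels do not explain. They also received lentivirus carrying a short hairpin RNA, labelled shGrhl3 in 2 RNA-seq libraries and shNT in 2 others. Grhl3 is a Grainyhead-like transcription factor, and shNT was taken as the control hairpin. The series title places the study in the question of how Grhl3 acts on cell fate in this conversion. The labels give no strain, age, hairpin sequence or number of separate cultures, so the spread between libraries may be technical. The count table names the knockdown columns shGrhl1 and shGrhl2, and the digits were read as replicate numbers because the sample labels give Grhl3 as the only target.

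Slc25 proteins move metabolites, nucleotides, cofactors and ions across a membrane that is otherwise closed to them. Most work as exchangers that open to one side of the membrane at a time, and the best known is the ADP/ATP translocase, which returns ATP made by respiration to the cytosol. Heart muscle, which depends on respiration, is rich in the translocase and in the phosphate carrier. Many substrates are served by a pair of paralogs whose use differs between tissues, and such pairs are set side by side here.

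Libraries held 19823397 and 18609743 counts for shGrhl3 and 19257692 and 16104243 for shNT. Grhl3 itself had 11 and 19 counts in the shGrhl3 libraries, against 31 and 14 in the shNT libraries. Its level overlapped between groups and a fall was not detected (log2 fold change -0.69, SE 0.56, adjusted p = 0.362 in edgeR's quasi-likelihood test). Grhl1 had 26 and 24 counts in shGrhl3, against 13 and 3 in shNT, and Grhl2 had 1 and 0 in shGrhl3, against 0 and 5 in shNT. The induced state was checked with 10 cardiomyocyte markers, which summed to 6434 and 6626 CPM (a gene's count relative to the scaled library total) in shGrhl3 and 5212 and 5175 CPM in shNT. Of these, 4 (Myh6, Tnni3, Actc1 and Atp2a2) were called higher and 1, Nppa, lower, and the most abundant, Tnnt2, overlapped between groups. Myh6, the alpha myosin heavy chain, stood at 241 and 261 CPM in shGrhl3, against 20.4 and 20.8 CPM in shNT. The 8 cardiac fibroblast markers were abundant, at 11103 and 11753 CPM in shGrhl3 and 9916 and 10051 CPM in shNT. That sum was led by Col1a1, the 1 marker called higher, while 4 (Dcn, Pdgfra, Tcf21 and Thy1) were called lower and the median log2 fold change of the 8 was -0.24. The 18 leukocyte markers summed to 157 and 126 CPM in shGrhl3, against 685 and 942 CPM in shNT. Lyz2 led this sum, at 102 and 75.7 CPM in shGrhl3, against 454 and 645 CPM in shNT. Of the 13 leukocyte markers tested, 12 were lower and 1, Csf1r, was higher in shGrhl3, and C1qb and C1qc had no count in either shGrhl3 library. Beside these marker counts, 17.1% of all genes tested were called higher and 17.9% lower. Mitochondrially encoded genes took 2.49% and 2.52% of counts in shGrhl3, against 2.12% and 2.21% in shNT. The small-subunit rRNA gene Rn18s took 0.0959% and 0.156% in shGrhl3, against 0.573% and 2.00% in shNT. These quantities moved with the groups in which the carriers are compared, and their part in the results was not tested. In cultures of mixed cells, fewer cells of a type and less RNA per cell cannot be told apart.

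Transcripts of the carrier family were called in both directions, and whether they changed together was not tested. Of the 47 genes, 40 had enough counts to be tested, and 14 of these passed an adjusted p of 0.05. That is 35.0% of the tested members, beside 35.0% of all 15324 genes tested, so the family was called about as often as any gene. In shGrhl3 cells 9 members rose (22.5%, beside 17.1% of all genes) and 5 fell (12.5%, beside 17.9%). The levels of the groups did not overlap for 26 tested members (65.0%, beside 66.5% of all genes), with 15 higher in both shGrhl3 libraries (beside 32.8% of all genes) and 11 lower in both (beside 33.7%). An unadjusted p under 0.05 was found for 43.6% of all genes. The median log2 fold change was 0.08 over the tested members and -0.01 over all genes tested. The count of higher members rested in part on single libraries. It was smaller without shGrhl3 replicate 1, without shNT replicate 1 and without shNT replicate 2, and a smaller share of all genes was called in each of those fits too. Of the 14 calls, 9 kept their direction and passed under all 13 alternatives, and 5 (Slc25a4, Slc25a5, Slc25a23, Slc25a25 and Slc25a28) were lost under at least 1.

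**Figure D1:**
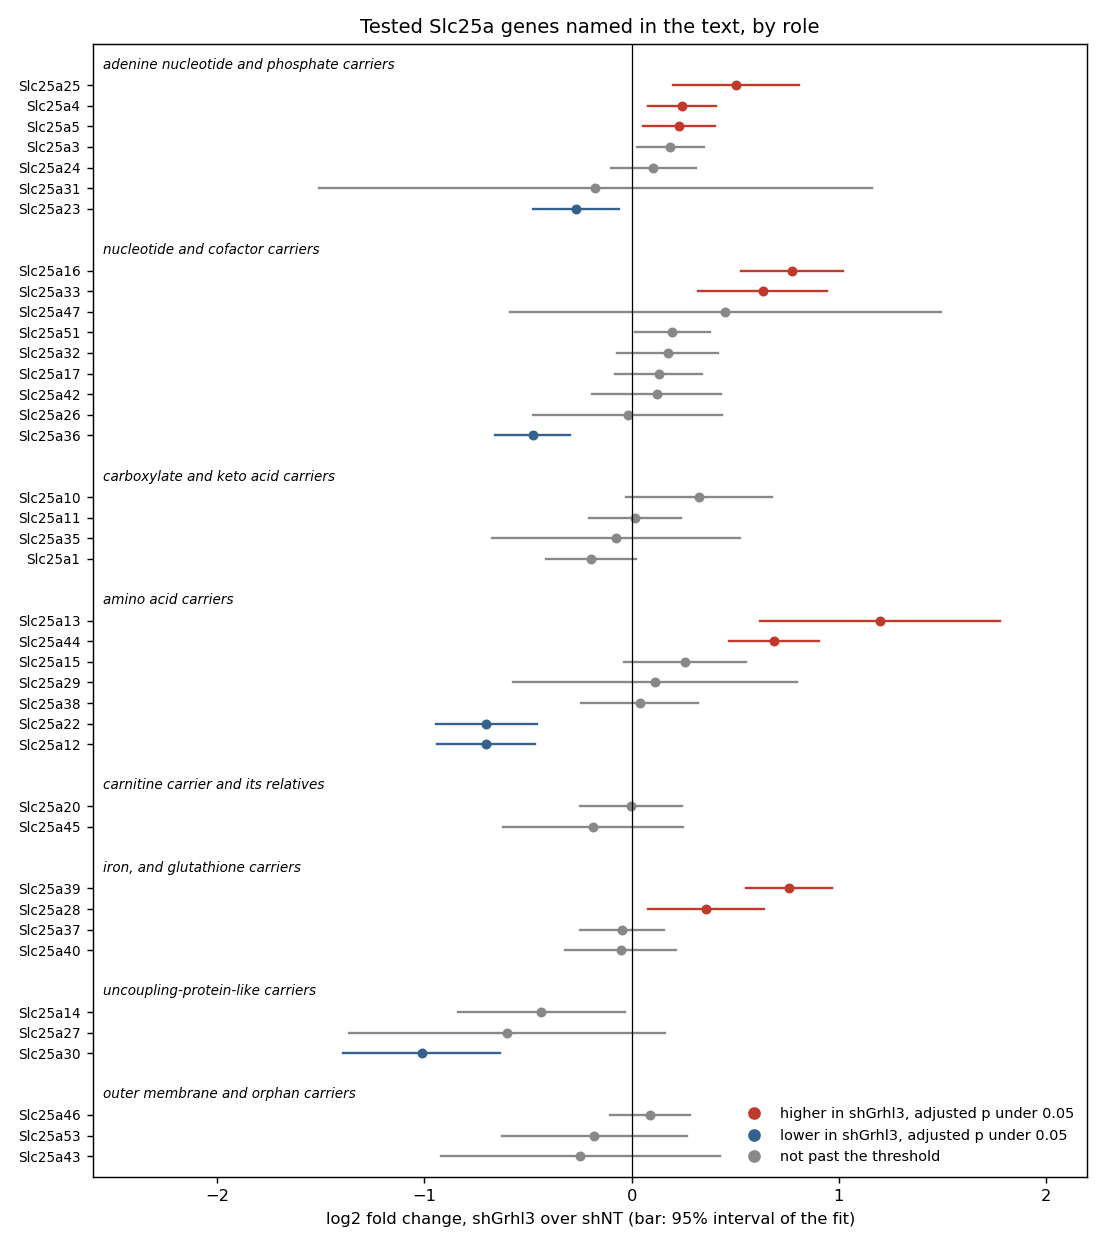
Log2 fold change of shGrhl3 over shNT (x axis) for the tested Slc25a genes named in the text (rows, grouped by role), with the 95% interval of the fit as a bar. Genes that passed lie on both sides of 0, from Slc25a30 at -1.01 to Slc25a13 at 1.20.

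Taken by level, 4 genes held most of the family's counts. Slc25a3, Slc25a4, Slc25a36 and Slc25a5 made up 59.9% and 58.8% of the summed Slc25a CPM in the shGrhl3 libraries and 60.1% and 59.2% in the shNT libraries. The whole family summed to 2593 and 2532 CPM in shGrhl3, against 2407 and 2385 CPM in shNT, and the groups did not overlap. The other 43 genes summed to 1040.2 and 1042 CPM in shGrhl3, against 961 and 972 CPM in shNT. CPM values are not corrected for transcript length, so they order the genes by counts and not by transcripts.

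The carriers of ATP, ADP and phosphate supply the substrates of the ATP synthase and export its product. Among the 7 tested, 3 were called higher and 1 lower (beside 17.1% and 17.9% of all genes), and 3 missed the threshold. Slc25a4 (chromosome 8, 46207168 to 46211062; gene positions here span the whole RefSeq gene in assembly GRCm38.p6, known also as mm10), the ADP/ATP translocase of heart and skeletal muscle, stood at 543 and 498 CPM in shGrhl3, against 439.5 and 440.7 CPM in shNT. It rose 1.18-fold (log2 fold change 0.24, SE 0.08, adjusted p = 0.0210 in edgeR's test), with no overlap between groups. Slc25a5 (chromosome X, 36795597 to 36798808), the translocase of most other tissues, stood at 228 and 207 CPM in shGrhl3, against 187 and 184 CPM in shNT. It rose 1.17-fold (log2 fold change 0.23, SE 0.08, adjusted p = 0.0371), also with no overlap. Both calls were lost without shGrhl3 replicate 1 (adjusted p = 0.0941 for Slc25a4 and 0.183 for Slc25a5) and without each of the shNT libraries (0.164 to 0.228 for the 2 genes). Slc25a4 made up 70.5% and 70.6% of the counts of the 2 genes in shGrhl3, against 70.1% and 70.5% in shNT. The balance between the heart and the general form thus differed by a log2 ratio of only 0.01, beside an SD of 0.01 and 0.02 within groups. Slc25a31, the translocase of the testis, was at the edge of detection with 13 and 11 counts in shGrhl3 and 19 and 6 in shNT.

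Slc25a3, the phosphate carrier, had the highest count of the family. It stood at 568 and 551 CPM in shGrhl3, against 484 and 500.1 CPM in shNT. The groups did not overlap, but the difference did not pass (log2 fold change 0.19, SE 0.08, adjusted p = 0.0672). It passed without shGrhl3 replicate 2 (0.0211) and with scaling by library size only (0.0421).

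The ATP-Mg/phosphate carriers, most of them gated by calcium, set the total adenine nucleotide pool of the matrix. Among them, Slc25a25 and Slc25a23 were called in opposite directions. Slc25a25 (chromosome 2, 32414487 to 32451470) stood at 24.0 and 24.2 CPM in shGrhl3, against 14.2 and 19.96 CPM in shNT. It rose 1.42-fold (log2 fold change 0.50, SE 0.15, adjusted p = 0.00982), but its shNT libraries lay far apart. Without shNT replicate 1 its log2 fold change was 0.27 and the call was lost (adjusted p = 0.264), whereas without shNT replicate 2 it was 0.76. Slc25a23 (chromosome 17, 57043711 to 57059909) stood at 48.6 and 44.5 CPM in shGrhl3, against 55.8 and 56.4 CPM in shNT. It fell by 0.27 on the log2 scale (SE 0.10, adjusted p = 0.0425), a call that was lost under 7 of 13 alternatives, among them those without shGrhl3 replicate 2 (adjusted p = 0.241), shNT replicate 1 (0.151) and shNT replicate 2 (0.181). The third paralog, Slc25a24, had overlapping levels of 78.6 and 78.3 CPM in shGrhl3 and 79.6 and 66.1 CPM in shNT. The fourth, Slc25a41, had a single count in the whole table.

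**Figure D2:**
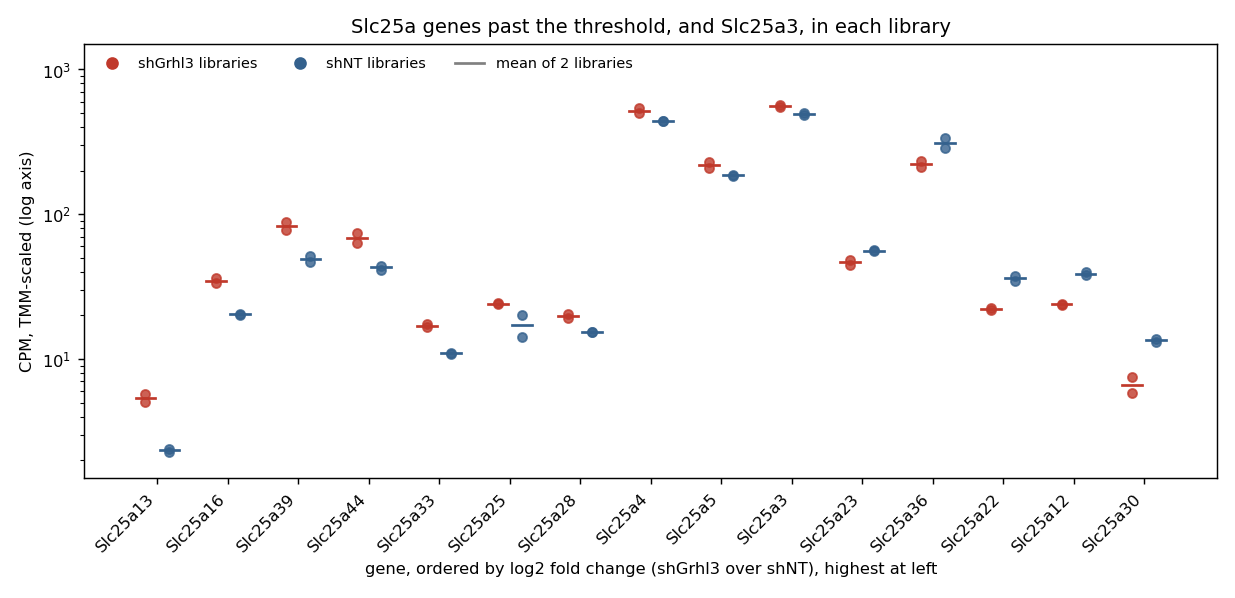
CPM of each library (y axis, log scale) for the 14 Slc25a genes past the threshold and for Slc25a3, with shGrhl3 libraries left of shNT libraries and a line at the mean of each group. In all 15 genes the 2 shGrhl3 points lie on the same side of both shNT points.

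Amino acid carriers held the highest fold change of the family and 2 of its 3 lowest. Among the 7 tested, 2 were called in each direction (beside 17.1% of all genes higher and 17.9% lower) and 3 missed the threshold. The aspartate-glutamate carriers Slc25a12 (aralar) and Slc25a13 (citrin) exchange matrix aspartate for cytosolic glutamate, a step of the malate-aspartate shuttle that brings reducing equivalents from glycolysis into mitochondria. Aralar is the form of heart, muscle and brain, and citrin that of liver. Slc25a12 (chromosome 2, 71274270 to 71367781) stood at 24.1 and 23.5 CPM in shGrhl3, against 37.7 and 39.8 CPM in shNT. It fell by 0.70 on the log2 scale (SE 0.11, adjusted p = 3.83e-05). Slc25a13 (chromosome 6, 6041218 to 6217304) stood at 5.04 and 5.73 CPM in shGrhl3, against 2.40 and 2.27 CPM in shNT. It rose 2.30-fold (log2 fold change 1.20, SE 0.28, adjusted p = 0.00176), on counts of 101 and 107 in shGrhl3 and 46 and 36 in shNT. For both genes the groups did not overlap, and both calls passed under all 13 alternatives.

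Because the 2 aspartate-glutamate carriers moved in opposite directions, their balance differed more than either level. Slc25a13 made up 17.3% (95% exact binomial interval 14.3 to 20.6) and 19.6% (16.3 to 23.2) of the counts of the pair in shGrhl3. In shNT its share was 5.99% (4.42 to 7.91) and 5.39% (3.80 to 7.38). These intervals cover counting error only. The log2 ratio of Slc25a13 to Slc25a12 was 1.89 higher in shGrhl3, with an SD of 0.16 in shGrhl3 and 0.11 in shNT (n = 2 each). An exact permutation test over 4 libraries cannot go below p = 0.333, the value it gave (two-sided). Slc25a12 still held most of the pair's counts in every library.

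The sequence before the annotated start of each of these genes is shown as the stretch that lies within 250 bases upstream of the start in the RefSeq promoter table and outside the annotated gene. It is given because the paired genes differ in direction. It is written 5′ to 3′ on the gene's strand, from GRCm38.p6, and capitals would mark the motifs searched in this table, of which the printed bases hold none. The full 250-base window of Slc25a13 does hold CACGTG (an E-box), in bases that lie inside the annotated gene and are not printed.
Slc25a13, chr6:6217305-6217423, minus strand: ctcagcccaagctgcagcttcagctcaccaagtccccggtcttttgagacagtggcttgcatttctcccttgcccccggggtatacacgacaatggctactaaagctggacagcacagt
Slc25a12, chr2:71367782-71368005, minus strand: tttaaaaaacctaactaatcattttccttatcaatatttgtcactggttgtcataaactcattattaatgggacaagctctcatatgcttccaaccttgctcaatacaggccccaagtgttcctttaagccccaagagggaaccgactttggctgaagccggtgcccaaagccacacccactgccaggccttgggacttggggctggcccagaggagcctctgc
The Slc25a13 stretch had 55.5% G and C over 119 bases, and the Slc25a12 stretch 48.2% over 224 bases.

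The remaining amino acid carriers were called on either side. Slc25a22 (chromosome 7, 141429749 to 141437874), a carrier that brings glutamate into the matrix together with a proton, stood at 22.4 and 21.9 CPM in shGrhl3, against 37.5 and 34.5 CPM in shNT. It fell by 0.70 on the log2 scale (SE 0.12, adjusted p = 5.37e-05), nearly the same change as Slc25a12. Its paralog Slc25a18 was too low to test, with 2 and 4 counts in shGrhl3 and 7 and 5 in shNT. Slc25a44 (chromosome 3, 88410494 to 88425141), a carrier of branched-chain amino acids described in brown fat, stood at 63.5 and 74.5 CPM in shGrhl3, against 41.5 and 44.2 CPM in shNT. It rose 1.61-fold (log2 fold change 0.69, SE 0.10, adjusted p = 1.75e-05). Neither gene overlapped between groups, and both calls passed under all 13 alternatives. Slc25a38, which carries glycine for haem synthesis, had overlapping levels of 19.5 and 17.3 CPM in shGrhl3 and 18.7 and 17.1 CPM in shNT. The ornithine carrier Slc25a15 stood at 17.5 and 21.7 CPM in shGrhl3, against 16.4 and 16.4 CPM in shNT, and did not pass. Slc25a29, a carrier of basic amino acids, was low and overlapped between groups.

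Among carriers of nucleotides and cofactors, 2 of 10 tested were called higher and 1 lower (beside 17.1% and 17.9% of all genes), and 7 missed the threshold. Slc25a33 and Slc25a36 both carry pyrimidine nucleotides, which the matrix needs to make its own DNA and RNA. Slc25a33 (chromosome 4, 149744036 to 149774267) stood at 17.4 and 16.5 CPM in shGrhl3, against 11.0 and 10.8 CPM in shNT. It rose 1.55-fold (log2 fold change 0.63, SE 0.15, adjusted p = 0.00198). Slc25a36 (chromosome 9, 97075281 to 97111041), with far more counts, stood at 213 and 234 CPM in shGrhl3, against 334 and 288 CPM in shNT. It fell by 0.48 on the log2 scale (SE 0.09, adjusted p = 0.000166). The groups did not overlap for either gene, and both calls passed under all 13 alternatives. The share of Slc25a33 in the counts of the pair was 7.53% and 6.60% in shGrhl3, against 3.19% and 3.62% in shNT, a difference of 1.11 in the log2 ratio (SD 0.14 in shGrhl3 and 0.13 in shNT, n = 2 each).

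The stretches before these starts are shown for the same reason, with matches to the motifs searched in capitals. Slc25a33 holds CACGTG (the E-box of basic helix-loop-helix factors), beginning 8 bases before the start. Slc25a36 holds CACGTG and TGACGTCA (the cAMP response element), beginning 187 and 161 bases before the start.
Slc25a33, chr4:149774268-149774517, minus strand: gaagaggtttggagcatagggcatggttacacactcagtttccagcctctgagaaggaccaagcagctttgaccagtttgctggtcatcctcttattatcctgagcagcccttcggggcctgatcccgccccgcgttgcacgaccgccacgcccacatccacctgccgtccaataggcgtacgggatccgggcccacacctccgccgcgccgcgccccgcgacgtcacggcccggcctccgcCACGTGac
Slc25a36, chr9:97111042-97111291, minus strand: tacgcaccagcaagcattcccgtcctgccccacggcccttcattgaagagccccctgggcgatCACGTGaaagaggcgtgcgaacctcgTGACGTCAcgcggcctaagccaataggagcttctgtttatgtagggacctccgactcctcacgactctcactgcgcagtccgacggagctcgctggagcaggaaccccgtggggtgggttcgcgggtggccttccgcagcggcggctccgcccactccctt
Both stretches are rich in G and C, at 64.4% each over 250 bases, with 23 CG steps in Slc25a33 and 24 in Slc25a36.

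Promoter entries were found for 36 of the 47 genes, in 46 windows of 250 bases upstream of a start. On both strands and with overlaps allowed, CACGTG was in 8 of these windows (17.4%), beside 6.02% of all 32851 windows. TGACGTCA was in 2 (4.35%, beside 1.55%) and CCGGAAG, the core bound by ETS factors such as nuclear respiratory factor 2, in 6 (13.0%, beside 6.91%). The motif of nuclear respiratory factor 1 was in 2 (4.35%, beside 3.74%). AACCGGTT, the Grainyhead-like motif, was in 0 of the 46, beside 0.116% of all windows. Of the called members with an entry, CACGTG was found in 2 of 8 that rose and 1 of 5 that fell. Those that rose were Slc25a33 and Slc25a13, and in Slc25a13 the match lies inside the annotated gene. These matches describe the letters of these windows.

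Slc25a16 had one of the larger rises. Slc25a16 (chromosome 10, 62920632 to 62946494) is related to a yeast carrier needed for coenzyme A in the matrix. It stood at 36.2 and 33.2 CPM in shGrhl3, against 20.4 and 20.2 CPM in shNT, a 1.71-fold rise with no overlap (log2 fold change 0.77, SE 0.12, adjusted p = 2.03e-05). Slc25a42, which carries coenzyme A, overlapped between groups, at 14.9 and 19.2 CPM in shGrhl3 and 15.2 and 16.2 CPM in shNT. Slc25a51, the carrier of NAD, stood at 106 and 109.5 CPM in shGrhl3, against 94.1 and 94.1 CPM in shNT. Its groups did not overlap, but it did not pass (adjusted p = 0.0878). Slc25a26 (S-adenosylmethionine) and Slc25a32 (folate) overlapped between groups. Slc25a17, which works in peroxisomes, stood at 58.1 and 52.4 CPM in shGrhl3, against 51.7 and 49.1 CPM in shNT, without passing. Slc25a47, a liver carrier, was low at 1.05 and 1.93 CPM in shGrhl3 and 1.15 and 1.01 CPM in shNT, and overlapped.

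Carriers of iron and glutathione had 2 of 4 tested members higher and none lower, beside 17.1% and 17.9% of all genes, and 1 of the 2 calls was lost under 8 of 13 alternatives. Glutathione is the main thiol reductant of the matrix, and the matrix builds haem and iron-sulfur clusters from imported iron. Slc25a39 (chromosome 11, 102402969 to 102408675), a glutathione carrier, had the lowest p of the family. It stood at 88.5 and 78.2 CPM in shGrhl3, against 46.8 and 51.7 CPM in shNT, a 1.69-fold rise with no overlap (log2 fold change 0.76, SE 0.10, adjusted p = 2.65e-06). Its paralog Slc25a40 overlapped, at 24.5 and 21.0 CPM in shGrhl3 and 25.0 and 22.2 CPM in shNT. Slc25a39 made up 78.3% and 78.8% of the counts of the pair in shGrhl3, against 65.2% and 69.9% in shNT. Of the mitoferrins, which import iron, the general form Slc25a28 (chromosome 19, 43663801 to 43675006) stood at 19.1 and 20.3 CPM in shGrhl3, against 15.4 and 15.3 CPM in shNT. It rose 1.28-fold (log2 fold change 0.36, SE 0.14, adjusted p = 0.0435), a call lost without any 1 of the 4 libraries (adjusted p 0.0656 to 0.148). The erythroid form Slc25a37 overlapped, at 56.5 and 56.8 CPM in shGrhl3 and 60.2 and 56.7 CPM in shNT.

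**Figure D3:**
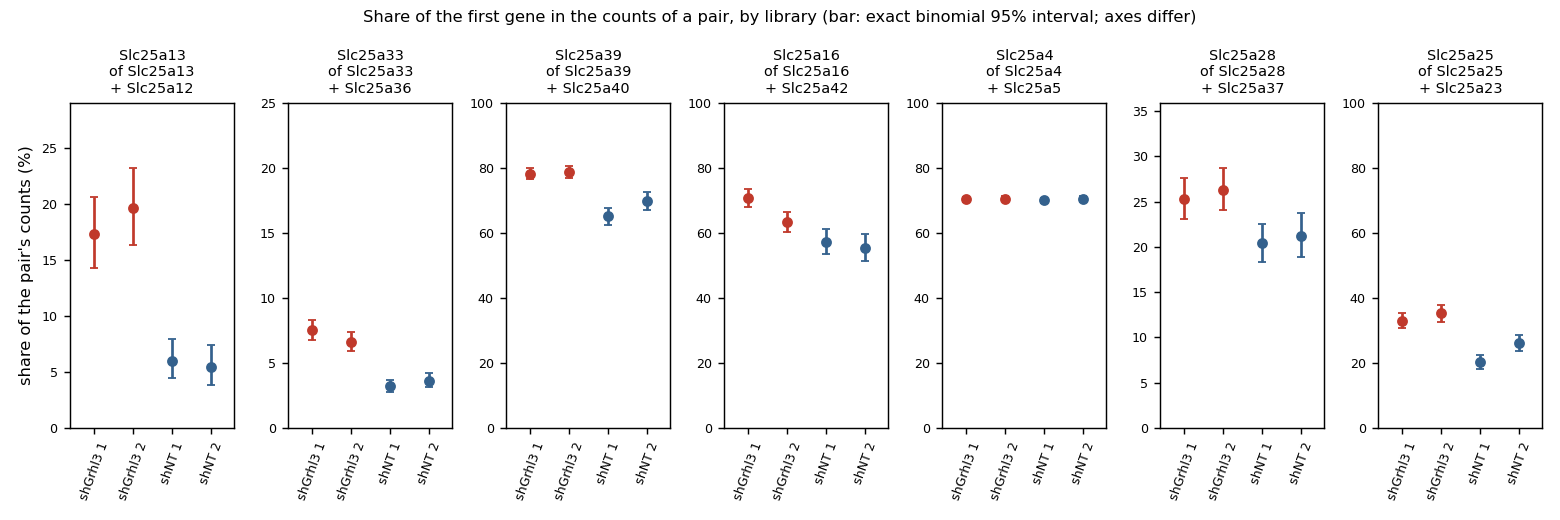
Share of the first-named gene in the summed counts of 7 pairs of related carriers (y axes in percent, which differ between panels), for each library, with exact binomial 95% intervals. The share of Slc25a13 is 17.3% and 19.6% in shGrhl3, against 5.99% and 5.39% in shNT, while that of Slc25a4 lies between 70.1% and 70.6% in all 4 libraries.

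The 7 pairs were chosen after the gene values were seen. In 6 of them the share of the first gene was higher in both shGrhl3 libraries than in both shNT libraries, and in all 7 the first gene is a member that rose. In the pair of Slc25a16 and Slc25a42 it was 70.8% and 63.4% in shGrhl3, against 57.4% and 55.5% in shNT. In the pair of Slc25a25 and Slc25a23 it was 33.0% and 35.3% in shGrhl3, against 20.3% and 26.1% in shNT. In the mitoferrins, the share of Slc25a28 was 25.3% and 26.3% in shGrhl3, against 20.4% and 21.2% in shNT. The exact permutation p was 0.333, the smallest possible, for each of these 6 pairs and 0.667 for Slc25a4 and Slc25a5 (two-sided, 7 pairs tested). With 2 libraries a group, this permutation test cannot pass a threshold of 0.05 for any pair, with or without adjustment, so it cannot decide whether the shares differ.

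Carriers resembling uncoupling proteins were all lower in count, and 1 of 3 passed (beside 17.9% of all genes called lower). Slc25a30 (chromosome 14, 75757534 to 75787037), a carrier first described in kidney, had the lowest fold change of the family. It stood at 7.48 and 5.78 CPM in shGrhl3, against 13.1 and 13.8 CPM in shNT. It fell by 1.01 on the log2 scale (SE 0.18, adjusted p = 0.000139), on 150 and 108 counts in shGrhl3 and 250 and 219 in shNT. Slc25a14 stood at 6.28 and 7.33 CPM in shGrhl3, against 9.04 and 9.38 CPM in shNT (log2 fold change -0.44, SE 0.19, adjusted p = 0.0863). Slc25a27, a form of brain, stood at 1.55 and 1.98 CPM in shGrhl3, against 2.82 and 2.52 CPM in shNT (log2 fold change -0.60, SE 0.37, adjusted p = 0.221). All 3 were lower in both shGrhl3 libraries than in both shNT libraries, which was also true of 33.7% of all genes tested.

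Carboxylate carriers, which link the citric acid cycle to lipid synthesis and the malate-aspartate shuttle, had 0 of 4 tested members past the threshold (beside 35.0% of all genes). The citrate carrier Slc25a1 stood at 58.9 and 62.4 CPM in shGrhl3, against 62.4 and 76.7 CPM in shNT, and its groups nearly met. The oxoglutarate carrier Slc25a11, which works beside the aspartate-glutamate carriers in the shuttle, overlapped at 45.3 and 40.4 CPM in shGrhl3 and 41.1 and 43.8 CPM in shNT. The dicarboxylate carrier Slc25a10 stood at 13.1 and 14.7 CPM in shGrhl3, against 9.51 and 12.8 CPM in shNT. Slc25a20, which brings acylcarnitines into the matrix for fatty acid oxidation, overlapped at 29.97 and 28.9 CPM in shGrhl3 and 27.3 and 31.8 CPM in shNT. Slc25a46, an outer membrane protein of mitochondrial dynamics, stood at 76.7 and 80.2 CPM in shGrhl3, against 75.9 and 71.7 CPM in shNT, without passing. Slc25a35, Slc25a43, Slc25a45 and Slc25a53, whose substrates are less well defined, had between 2.54 and 7.81 CPM in every library and did not pass. Across the 23 tested members that neither passed nor are given a fold change by name, log2 fold changes lay between -0.25 and 0.45 and the lowest adjusted p was 0.0878.

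The 7 untested genes were near the limit of detection. Slc25a54 had no count in any library, and Slc25a2 and Slc25a41 had 1 count each in all. Slc25a21 had 0 counts in both shGrhl3 libraries, against 3 and 0 in shNT. Slc25a34 had 0 counts in both shGrhl3 libraries, against 5 and 4 in shNT. A floor of 3 counts in each shGrhl3 library is a mean of 0.155 CPM. The mean of Slc25a34 in shNT, 0.257 CPM, was 1.65-fold that floor. The shNT counts carry a counting error of their own, so this is not a bound on the difference, and it was not tested. Slc25a48 had 4 and 6 counts in shGrhl3, against 0 and 2 in shNT. For none of the 7 could a difference be shown at this depth.

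Genes around the carriers were read from 4 lists, chosen with earlier results of these data known. Their shares called, set beside those of all genes, are thus not an independent comparison. The family also includes proteins with other names, of which Ucp2, an uncoupling protein found in many tissues, fell to 23.8 and 23.6 CPM in shGrhl3, against 28.2 and 35.3 CPM in shNT (log2 fold change -0.42, SE 0.13, adjusted p = 0.0124). That call was lost without shNT replicate 2 (log2 fold change -0.25, adjusted p = 0.261). Mtch1 and Mtch2 overlapped between groups, and Ucp1 and Ucp3 had at most 1 count. Carriers reach the inner membrane through small TIM chaperones and the TIM22 complex, and 2 of 10 genes of this route rose while none fell, beside 17.1% of all genes higher and 17.9% lower, so the share of rises was near that of all genes. They were Timm8b, a chaperone of the intermembrane space, at 55.8 and 47.7 CPM in shGrhl3 against 35.8 and 38.9 CPM in shNT, and Agk, a kinase that is part of the complex, at 22.2 and 23.2 CPM in shGrhl3 against 16.6 and 16.4 CPM in shNT (adjusted p = 0.00170 and 0.00756 in edgeR's test).

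Of 13 other channels and carriers for metabolites and ions, 5 were called higher and 2 lower (beside 17.1% and 17.9% of all genes), and 6 missed the threshold. Vdac2 and Vdac3 are voltage-dependent anion channels, pores of the outer membrane through which the substrates of the carriers pass. Vdac2 stood at 690.5 and 649 CPM in shGrhl3, against 460.2 and 446 CPM in shNT (log2 fold change 0.56, SE 0.08, adjusted p = 5.48e-06). Vdac3 stood at 141 and 131 CPM in shGrhl3, against 101 and 100.1 CPM in shNT (log2 fold change 0.44, SE 0.09, adjusted p = 0.000385). Sideroflexins, carriers of the inner membrane, were called in both directions. Sfxn1, a serine carrier, stood at 60.1 and 59.2 CPM in shGrhl3, against 42.5 and 46.5 CPM in shNT (log2 fold change 0.42, SE 0.10, adjusted p = 0.00208). That rise missed the threshold without shNT replicate 1 (adjusted p = 0.0570). Its paralog Sfxn3 fell to 71.6 and 73.0 CPM in shGrhl3, against 103 and 107 CPM in shNT (log2 fold change -0.54, SE 0.09, adjusted p = 5.39e-05). Sfxn5, named after its value was seen, had the lowest fold change of the list, at 1.20 and 1.45 CPM in shGrhl3, against 3.61 and 3.78 CPM in shNT (log2 fold change -1.48, adjusted p = 0.00247). Its values under the alternatives are not given here.

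Of 19 tested enzymes and transporters that act beside the carriers, 8 were called higher and 2 lower (beside 17.1% and 17.9% of all genes), and 9 missed the threshold. These genes, like those of the other lists, were chosen with earlier results of these data known. Got1 and Got2 are the cytosolic and the mitochondrial aspartate aminotransferase, the enzymes of the malate-aspartate shuttle between which Slc25a12 and Slc25a13 work. Got1 stood at 136 and 142 CPM in shGrhl3, against 59.4 and 59.6 CPM in shNT (log2 fold change 1.22, SE 0.09, adjusted p = 4.13e-10). Got2 stood at 197 and 195 CPM in shGrhl3, against 146 and 142 CPM in shNT (log2 fold change 0.44, SE 0.08, adjusted p = 0.000181). Cpt1a, which forms the acylcarnitines that Slc25a20 carries, fell to 91.0 and 87.9 CPM in shGrhl3, against 142 and 139 CPM in shNT (log2 fold change -0.65, SE 0.09, adjusted p = 3.00e-06). Abcb10, an inner membrane transporter needed for haem synthesis and known to stabilise the mitoferrin Slc25a37, stood at 36.4 and 38.7 CPM in shGrhl3, against 24.1 and 24.1 CPM in shNT (log2 fold change 0.64, SE 0.11, adjusted p = 0.000122). Fech and Cpt2, named after their values were seen, went the other way from Abcb10 and Cpt1a. Fech, also of haem synthesis, fell (log2 fold change -0.53, adjusted p = 0.000216 in edgeR's test). Cpt2 rose (log2 fold change 0.42, adjusted p = 0.00737). Their values under the alternatives are not given here. The medians of these lists were -0.03 for the renamed family members, 0.11 for import, 0.07 for the channels and 0.22 for the enzymes, beside -0.01 for all genes.

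**Figure D4:**
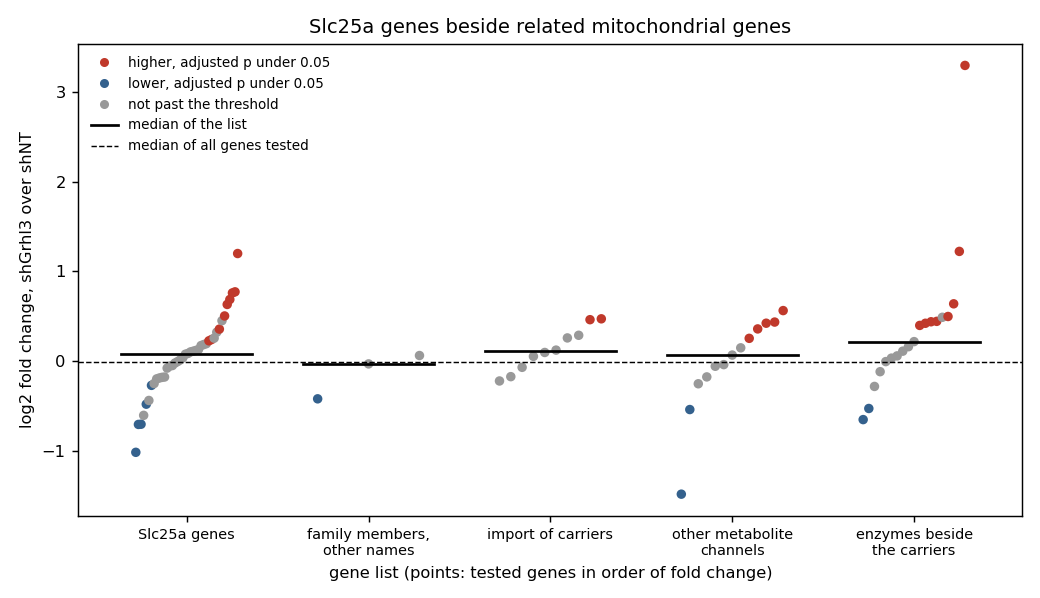
Log2 fold change of shGrhl3 over shNT (y axis) for the tested genes of 5 lists, with the median of each list as a solid line and that of all genes tested as a dashed line. Each list with calls in both directions spreads around a median of at most 0.22, and the highest point, Ckmt1 at 3.29, rests on few counts.

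Ckmt1, a mitochondrial creatine kinase chosen for mention after its value was seen, had 1.20 and 0.589 CPM in shGrhl3, against 0.105 and 0.0630 CPM in shNT. No source used here says how reads shared between paralogs or pseudogenes were counted, so Slc25a4, Slc25a5 and Slc25a31, which are close in sequence and whose processed pseudogenes are common in mammals, are uncertain in that respect. Nor does any say whether counting used strand. Of the 14 called members, 5 overlap another RefSeq gene, namely Slc25a12, Slc25a16, Slc25a25, Slc25a39 and Slc25a44, and reads of overlapping genes cannot be told apart without it.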

How the data were processed

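RNA-seq libraries of induced cardiomyocytes, 2 shGrhl3 and 2 shNT, were analysed; the H3K27ac CUT&Tag libraries, 4 in number, are not used here. The authors deposited raw read counts per gene in 1 table, whole numbers with no normalization found in them. The submitters' processing notes list cutadapt 1.9.1, HISAT2 2.0.1 and build mm10 among others, without roles. For the counting tool, its annotation and strand setting: not given in the sources used here. Columns named shGrhl1 and shGrhl2 were read as shGrhl3 replicates 1 and 2, since Grhl3 is the only target in the sample labels.

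Of 55359 rows, 1438 name no gene (0.00432% to 0.00872% of a library's counts) and were left out. Genes were filtered with filterByExpr (minimum count 10), scaled by TMM and tested with edgeR 4.0.16 in R 4.3.3 (quasi-likelihood, robust, two-sided, Benjamini-Hochberg over all 15324 genes, threshold 0.05). SE was derived from the F statistic. CPM uses TMM-scaled library sizes. The fit was tested on simulated data. The changes planted there were larger than most of those called here, so that test does not speak for smaller ones. Counts of the replicates of a group differed beyond sampling noise (chi-square per degree of freedom 6.68 for shGrhl3 and 10.3 for shNT). These values include Rn18s, which took 0.573% and 2.00% of counts in the shNT libraries, so they do not rank the groups by spread. Alternatives included DESeq2 1.42.0 and limma 3.58.1. No label says that replicates came from separate cultures, so p-values reflect only how far these 4 libraries spread. A gene with 10 counts carries a large counting error.

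Members and lists were chosen with earlier results of these data known. Named with every library's value are members past the threshold, the 4 with the highest mean CPM and those at 0 in 1 group only. From each pathway list, up to 4 called genes with the lowest p are named in the same way. Sfxn5, Ckmt1, Fech and Cpt2 were named after their values were seen. The same-build positions and upstream sequences are from RefSeq (GRCm38.p6), which matched all 47 symbols. The values of 1 tested member that did not pass are not reported here by name; it is included in the counts and sums.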

Additional observations from a re-analysis of the deposited data

How the results depend on the processing

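Over 13 alternatives, the number of Slc25a genes higher in shGrhl3 ranged from 5 to 10 and the number lower from 4 to 5. With 1 library left out, 5 to 9 were higher and 4 to 5 lower, and the median log2 fold change of the tested members lay between 0.078 and 0.11. In those fits the lone library of a group is assumed to vary like the other group. The median was 0.11 with scaling by library size only, which also moved the median of all genes to 0.02. No called member changed direction, and 9 of 14 passed throughout. DESeq2's Wald test called 7 higher and 4 lower members, and limma-voom 8 and 5. Of the 23 tested members with no fold change printed by name, 13 changed sign under at least 1 alternative and 1 passed under one (Slc25a10 without shNT replicate 2, adjusted p = 0.0445). Of 11 genes named from the pathway lists for their low p, 9 kept their calls.

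The titles number the replicates but do not say that they pair samples, and the replicate differences of the groups correlated at -0.0605 over genes. With the replicate number as a block, 6 members were higher and 4 lower, with a median log2 fold change of 0.09, and the calls of Slc25a4, Slc25a5, Slc25a23 and Slc25a28 were lost. Without any expression filter 8 were higher and 4 lower. With the stricter filter 38 members were tested. The cause of these shifts was not tested. Depth limits the 7 untested members and those with under 3 CPM.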
